A study of Bos taurus with 16 samples.

Results

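The genes described here encode extracellular proteases and their inhibitors, measured in cultured bovine theca interna cells. Members were taken by symbol from the annotation of the array: the matrix metalloproteinases (MMP), the ADAM, ADAMTS and ADAMTSL proteins, the tissue inhibitors of metalloproteinases (TIMP), the serpins, the cathepsins (CTS) and the plasminogen activator genes PLAT, PLAU and PLAUR. The rule found 66 genes among 9155 named genes. Each gene is read from the probe set whose mean over the arrays is highest. Of the members, 41 have 1 probe set and 25 have several. The symbol rule also takes in proteins that act mainly in lysosomes, such as most cathepsins, and serpins that inhibit no protease, such as the collagen chaperone SERPINH1.

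Theca interna is the hormone-producing cell layer of the follicle wall that supplies androgen to the granulosa cells. Cells pooled from about 50 bovine follicles of 4 to 6 mm were plated without serum and kept in culture for 6 days, and the treatments were present for 4 days, from day 3. Cultures received luteinising hormone together with bone morphogenetic protein 6 (LH+BMP6), BMP6 alone (10 ng/ml), LH alone (160 pg/ml) or neither (control). Each of the 4 groups holds 4 Affymetrix arrays, 16 in all, from 4 experiments on separate batches of slaughterhouse ovaries. The donors were adult cattle, and each primary culture mixed the cells of many follicles.

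Proteases of these families cut collagen, proteoglycans and cell-surface proteins, and each is held in check by dedicated inhibitors. Plasminogen activators turn plasminogen into plasmin, which in turn activates several metalloproteinases, while TIMPs block metalloproteinases and serpins trap serine proteases. In the ovary these systems are known for remodelling the follicle wall during growth, ovulation and the formation of the corpus luteum. BMP6 is a member of the transforming growth factor beta family made within the follicle, and LH is the pituitary hormone that drives theca steroid production. The design asks what BMP6 does to theca transcripts in unstimulated and in LH-stimulated cells.

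Values are log2 signals, so a difference of 1 is a doubling. Changes are given as a difference in log2 signal ± SE from limma, with 4 arrays in each group. A gene is called where the p value, adjusted by the Benjamini-Hochberg method over 24016 probe sets, is under 0.05. The number of arrays limits the precision. Levels of different genes are not set against each other, because each probe set has its own brightness.

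Theca identity was checked first. The 7 listed theca and steroidogenic markers were all measured. Their mean log2 signal was 7.19 to 7.97 on the LH+BMP6 arrays, against 10.27 to 11.42 on the LH arrays, and 7.25 to 7.58 on the BMP6 arrays, against 9.78 to 10.30 on the control arrays. All 7 were called lower in LH+BMP6 against LH, and 6 in BMP6 against control. Of 5 granulosa markers measured, none was called in either comparison, and their mean log2 signal was 4.32 to 4.64 with LH+BMP6, against 4.42 to 4.89 with LH, and 4.40 to 4.59 with BMP6, against 4.62 to 4.77 in controls. FSHR was the 1 of them below the lower quartile on every array, and HSD17B1 the highest, with group means of 5.47 to 6.33. Hybridisation controls were dim on 3 arrays, namely LH replicate 1 and control replicates 1 and 3, none of which had BMP6. Their mean log2 signal there was 8.66 to 8.71, against 9.84 to 10.17 on the other arrays. Without these 3 arrays 16 members were called higher and 5 lower in BMP6 against control, and 19 higher and 3 lower in LH+BMP6 against LH. Of all 24016 probe sets, 1188 were then called higher and 1472 lower in BMP6 against control, where all arrays gave 1950 and 2390. In LH+BMP6 against LH 1732 were called higher and 1742 lower, where all arrays gave 2399 and 2480.

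BMP6 moved more of these genes up than down, with and without LH. In BMP6 against control, 17 of the 66 members were called higher (25.8%, against 9.31% of all named genes) and 4 lower (6.06%, against 15.5%). In LH+BMP6 against LH, 21 were called higher (31.8%, against 11.7%) and 4 lower (6.06%, against 15.5%). The median change over all 66 members was 0.15 in BMP6 against control and 0.14 in LH+BMP6 against LH, where the medians over all named genes were -0.02 and -0.03. A change in bulk RNA cannot separate fewer or more cells of a type from less or more RNA per cell, and these cannot be told apart here.

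The plot of changes by role shows where the calls fell. Cathepsins had the highest median change of the families with more than 3 members, 0.45 in BMP6 against control and 0.61 in LH+BMP6 against LH. The 20 serpins had medians of 0.04 and -0.04, with calls in both directions. The 4 TIMPs had medians of 0.09 and 0.06.

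**Figure D1:**
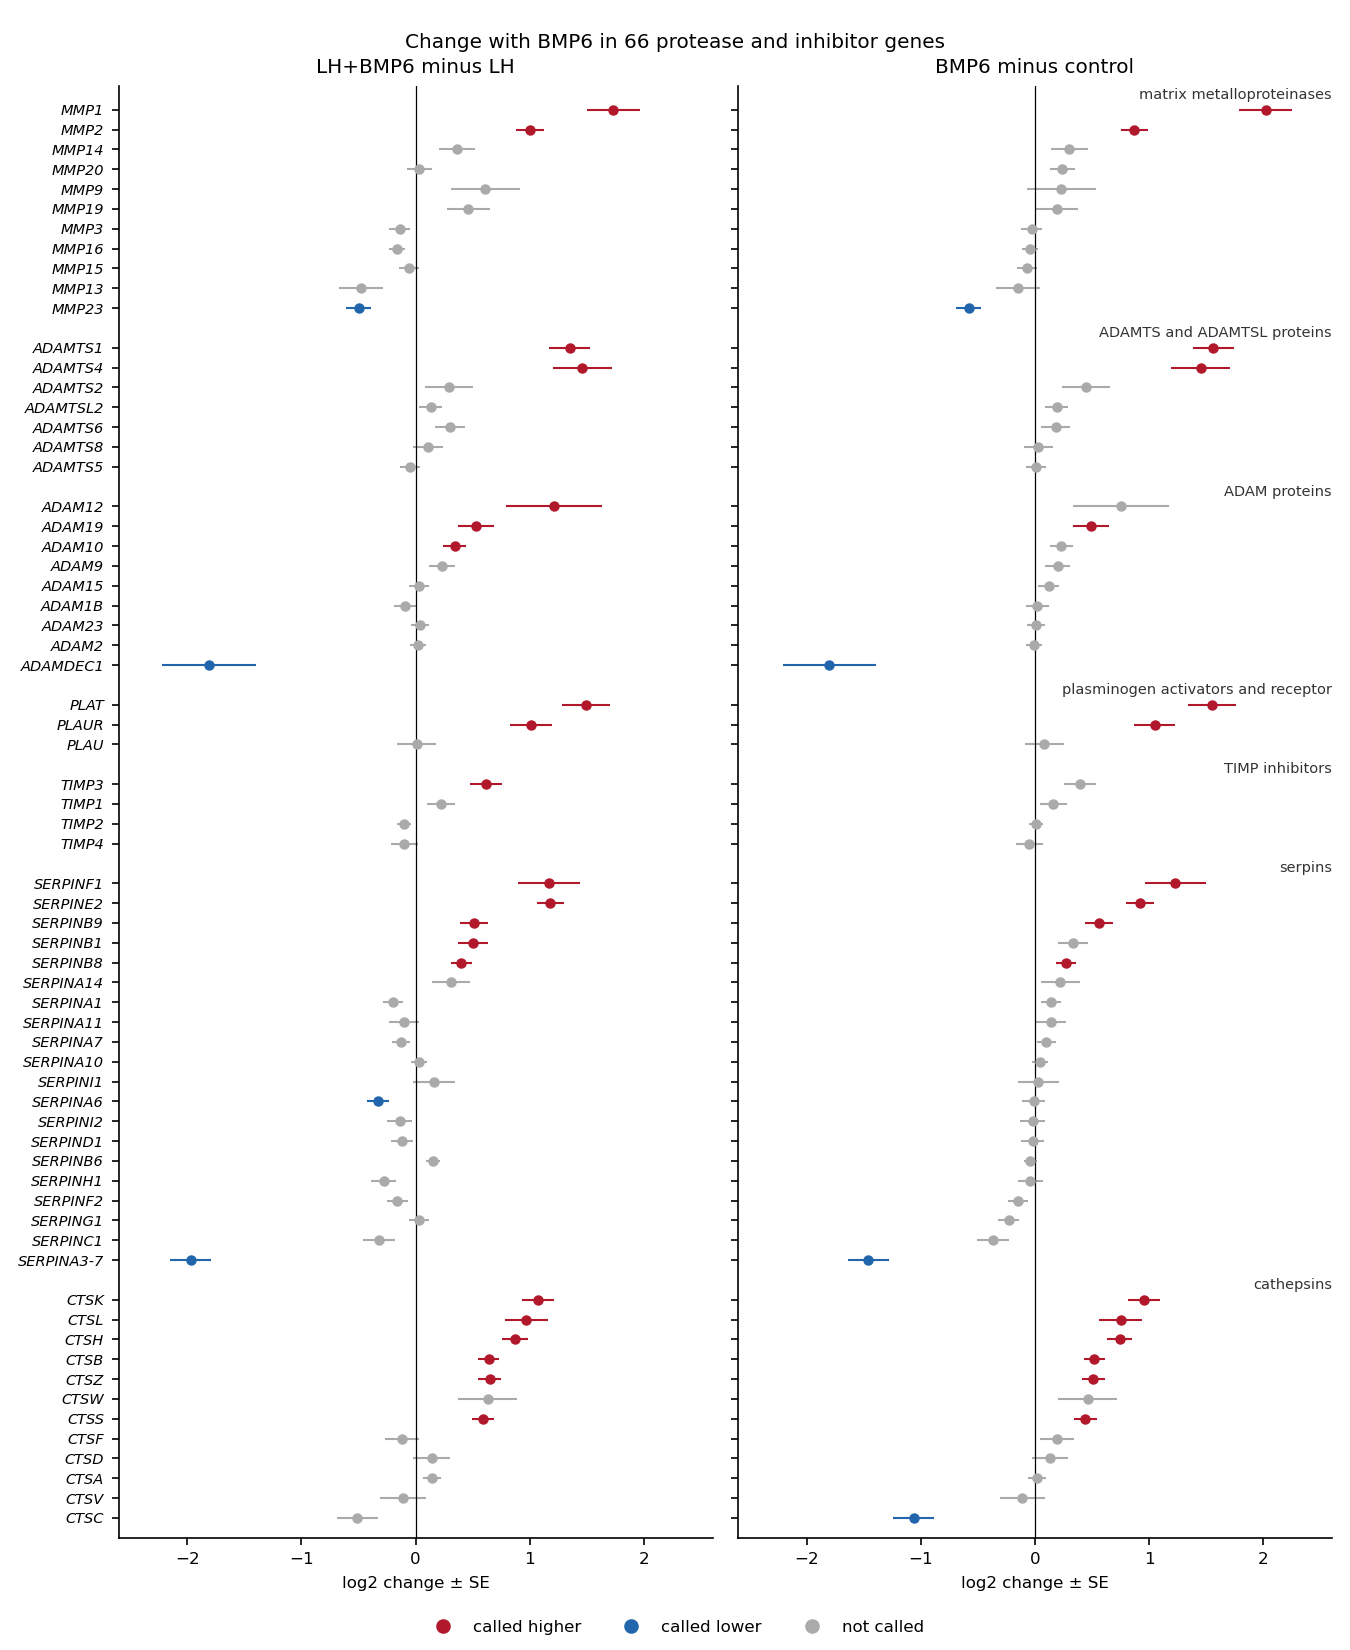
Change in log2 signal (x axis, ± SE) of each of the 66 genes (rows, grouped by role) in LH+BMP6 against LH (left) and BMP6 against control (right), with called genes in red (higher) or blue (lower). Red points reach 1.73 on the left and 2.02 on the right for MMP1, and the farthest blue points are SERPINA3-7 at -1.97 on the left and ADAMDEC1 at -1.80 on the right.

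Among the 11 matrix metalloproteinases, 2 were called higher and 1 lower in each BMP6 comparison. MMP1, the interstitial collagenase that makes the first cut in fibrillar collagen, had the largest rise of all members. Its log2 signals were 6.77, 7.49, 6.70 and 6.24 on the LH+BMP6 arrays, against 5.40, 4.79, 4.95 and 5.15 on the LH arrays. Without LH they were 6.50, 7.35, 6.74 and 6.89 with BMP6, against 4.63, 4.56, 5.09 and 5.14 in controls. All 8 arrays with BMP6 lay above all 8 without it. The change was 1.73 ± 0.23 in LH+BMP6 against LH (limma adjusted p = 5.66e-05) and 2.02 ± 0.23 in BMP6 against control (limma adjusted p = 1.49e-05). Signals without BMP6 lay above but near the lower quartile of the arrays, 4.31 to 4.43, where array signals can be compressed. Whether this affected the 3.32-fold and 4.04-fold differences was not tested.

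MMP2, the gelatinase that digests basement membrane collagen, was bright in every culture and rose as well. It had 11.96, 12.32, 12.17 and 12.53 with LH+BMP6, against 11.25, 11.03, 11.42 and 11.27 with LH. Without LH it had 11.91, 11.88, 12.26 and 12.06 with BMP6, against 11.06, 10.98, 11.35 and 11.22 in controls. The groups did not overlap in either pair, and the changes were 1.00 ± 0.12 (limma adjusted p = 1.95e-05) and 0.87 ± 0.12 (limma adjusted p = 8.86e-05). Within the 4 replicate numbers the difference between BMP6 and control ran from 0.84 to 0.90, and with LH it ran from 0.71 to 1.29.

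MMP23, a membrane-anchored metalloproteinase first described in human ovary and testis, was the member of the family that fell. Its signals were 9.84, 9.80, 9.93 and 10.01 with LH+BMP6, against 10.27, 10.40, 10.54 and 10.39 with LH, and 9.96, 9.54, 10.05 and 9.72 with BMP6, against 10.09, 10.53, 10.58 and 10.39 in controls. The groups were apart in both pairs, with control replicate 1 just above the highest BMP6 array. Changes were -0.50 ± 0.11 with LH (limma adjusted p = 0.00428) and -0.58 ± 0.11 without it (limma adjusted p = 0.00169), and the second probe set of the gene was called lower in both.

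The other gelatinase, MMP9, and the collagen-cleaving MMP14, which also activates pro-MMP2, were not called. MMP9 had 9.26, 9.60, 9.89 and 10.58 with LH+BMP6, against 9.0, 8.56, 9.71 and 9.62 with LH, a change of 0.61 ± 0.30 (limma adjusted p = 0.181). Without LH it had 9.23, 9.18, 10.24 and 9.94 with BMP6, against 8.95, 9.39, 9.78 and 9.56 in controls, a change of 0.23 ± 0.30. The groups overlapped, and replicates 3 and 4 were high in all of them. With the replicate number as a block the LH+BMP6 change of MMP9 was called (limma adjusted p = 0.00963), as were those of MMP14 (0.36, limma adjusted p = 0.0489), MMP19 (0.46, limma adjusted p = 0.00035, and also called without LH+BMP6 replicate 1, at 0.61) and the collagenase MMP13 (-0.48, limma adjusted p = 0.0189), which were not called without it.

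MMP14 had 5.42, 5.36, 5.55 and 5.92 with LH+BMP6, against 5.01, 5.03, 5.49 and 5.27 with LH, and 5.24, 5.26, 5.55 and 6.02 with BMP6, against 5.28, 5.13, 5.29 and 5.16 in controls. Its groups overlapped, with replicate 4 the highest of both sets with BMP6. Of the stromelysin MMP3 and the enamel protease MMP20, every array lay below its lower quartile. MMP1 and MMP3 are adjacent protein-coding genes in the RefSeq annotation, and MMP13 and MMP20 belong to the same cluster, and MMP1 was the 1 of these 4 genes that was called.

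Of the 7 ADAMTS and ADAMTSL genes, 2 were called higher in each BMP6 comparison and none lower. ADAMTS1, a secreted protease that cuts the proteoglycan versican and is known for its part in ovulation, had 10.26, 10.51, 10.58 and 10.17 with LH+BMP6, against 8.60, 9.16, 9.42 and 8.93 with LH. In the absence of LH the values were 10.27, 10.18, 10.24 and 10.41 with BMP6, against 8.17, 9.22, 8.77 and 8.72 in controls. The BMP6 arrays of this gene lay close together while the controls spread widely, and no array overlapped in either pair. The changes were 1.35 ± 0.18 (limma adjusted p = 6.94e-05) and 1.56 ± 0.18 (limma adjusted p = 2.09e-05). Its second probe set gave 1.13 and 1.45.

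ADAMTS4, an aggrecanase that also cuts versican, had 10.67, 11.21, 10.90 and 10.08 with LH+BMP6, against 9.16, 9.28, 9.27 and 9.29 with LH. Its values without LH were 10.22, 11.31, 10.37 and 10.44 with BMP6, against 8.73, 8.63, 9.46 and 9.72 in controls. Replicate 2 was highest with BMP6 in both pairs, and the groups did not overlap. The changes were 1.46 ± 0.26 (limma adjusted p = 0.000753) and 1.45 ± 0.26 (limma adjusted p = 0.000969). ADAMTS5, the neighbour of ADAMTS1 on the chromosome and the other main aggrecanase, changed by -0.05 ± 0.09 and 0.01 ± 0.09, with 95% intervals of -0.24 to 0.14 and -0.18 to 0.20. ADAMTS2, which trims the ends of procollagen, had changes of 0.29 ± 0.21 and 0.45 ± 0.21, of which the second was called with the replicate block (limma adjusted p = 0.0407) and not without it (limma adjusted p = 0.149).

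**Figure D2:**
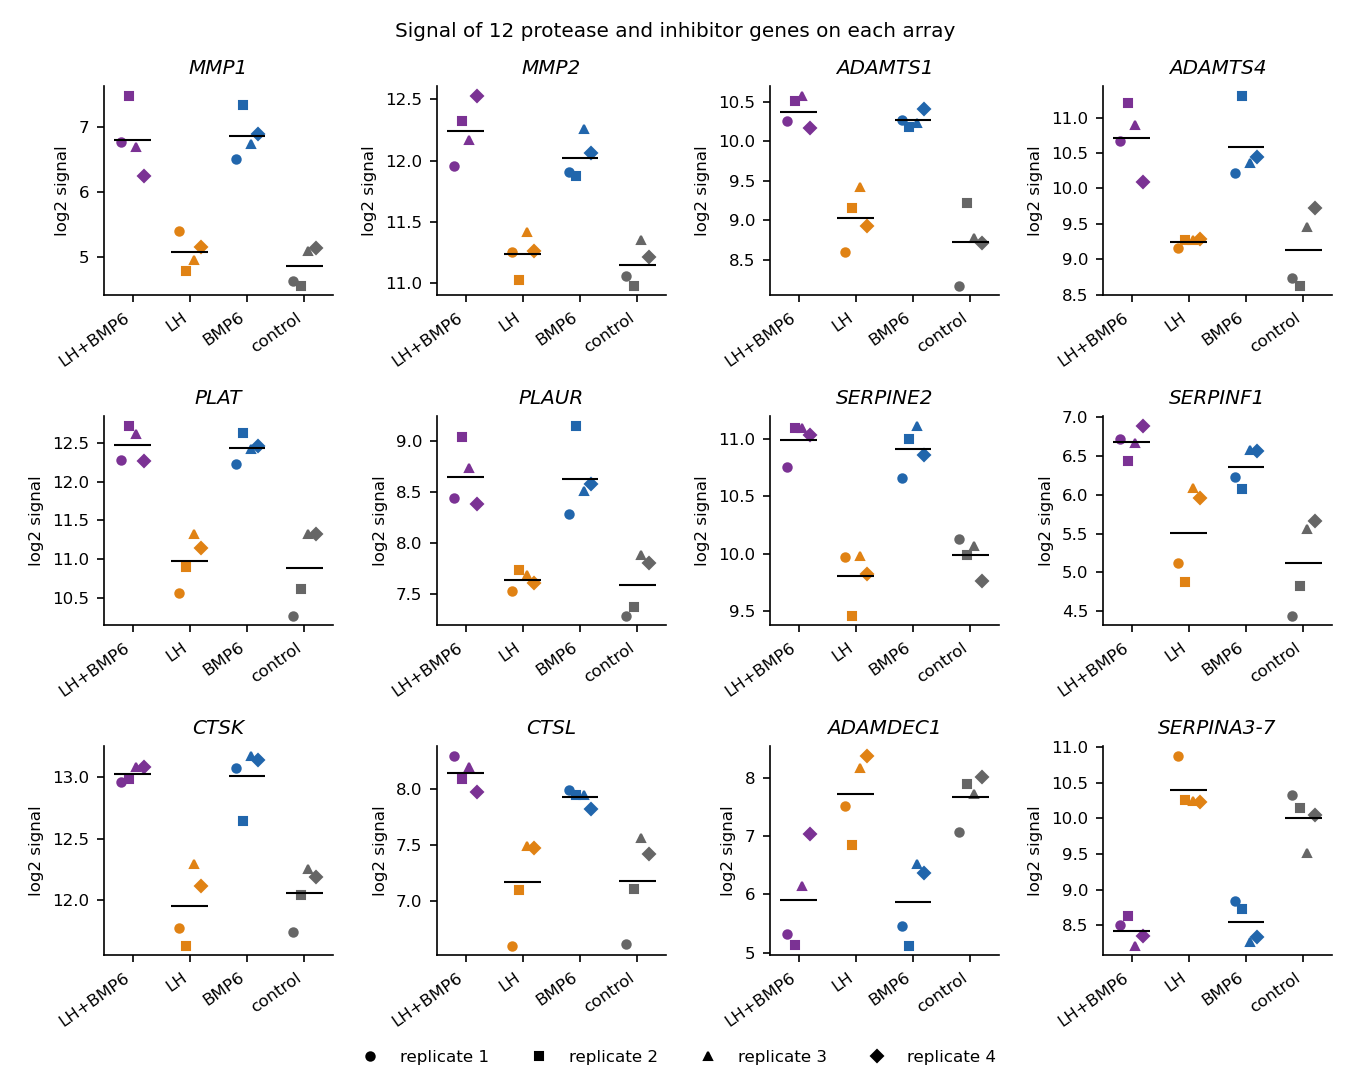
Log2 signal (y axis, a separate scale for each gene) of 12 protease and inhibitor genes on each of the 16 arrays, by group (x axis); point shapes mark the replicate number and lines the group means. In 10 panels the arrays with BMP6 sit above those of their pair without it, and in ADAMDEC1 and SERPINA3-7 their means are lower; the MMP1 means are 6.80, 5.07, 6.87 and 4.85 from left to right.

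Of the 9 ADAM genes, 3 were called higher and 1 lower in LH+BMP6 against LH, and 1 higher and 1 lower in BMP6 against control. ADAMDEC1, a secreted ADAM family protease described in human dendritic cells and gut, fell the most. It had 5.32, 5.14, 6.15 and 7.03 with LH+BMP6, against 7.51, 6.85, 8.16 and 8.37 with LH, and 5.46, 5.12, 6.53 and 6.37 with BMP6, against 7.07, 7.88, 7.71 and 8.01 in controls. Replicate 4 of LH+BMP6 lay above the lowest LH array, so that pair overlapped, whereas the pair without LH did not. The change was -1.81 ± 0.41 with LH (limma adjusted p = 0.00429) and -1.80 ± 0.41 without it (limma adjusted p = 0.00501), and it was negative in 4 of 4 replicate numbers in both.

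ADAM12 and ADAM19 are membrane proteases that shed growth factors from the cell surface. ADAM12 had 6.47, 6.22, 6.77 and 7.47 with LH+BMP6, against 5.24, 4.74, 6.00 and 6.09 with LH, and 5.93, 5.89, 7.08 and 6.94 with BMP6, against 4.55, 5.49, 6.66 and 6.13 in controls. Replicates 3 and 4 were above replicates 1 and 2 in every group. The change with LH was 1.21 ± 0.42 (limma adjusted p = 0.049), a call that was lost in 17 of the alternative settings. Among these were 8 of the 16 ways to leave out 1 array (LH+BMP6 replicates 1, 3 and 4, BMP6 replicate 4, LH replicates 1 and 2, and control replicates 2 and 4), and over all 16 the change ran from 0.95 to 1.41. Without LH it was 0.75 ± 0.42 (limma adjusted p = 0.252), which the replicate block turned into a call (limma adjusted p = 0.0178). The block kept the call with LH (1.21 ± 0.21, limma adjusted p = 0.000603).

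ADAM19 had changes of 0.53 ± 0.16 with LH (limma adjusted p = 0.0265) and 0.49 ± 0.16 without it (limma adjusted p = 0.0459). Both calls were fragile: 12 of the 16 ways to leave out 1 array ended the one without LH, and leaving out LH+BMP6 replicate 2, 3 or 4 or LH replicate 1 or 2 ended the one with LH. Over all single arrays left out the changes ran from 0.40 to 0.65 with LH and from 0.31 to 0.61 without it. The replicate block kept both calls (limma adjusted p = 0.000984 with LH and 0.00213 without it). ADAM10, the main sheddase of Notch and cadherins, was called with LH (0.34 ± 0.10, limma adjusted p = 0.0221) and not without it (0.23 ± 0.10, limma adjusted p = 0.122). Its call ended without LH+BMP6 replicate 1, 2 or 3 or LH replicate 4, and over all single arrays left out the change lay between 0.28 and 0.42. It also ended without the 3 arrays of dim hybridisation controls (0.34, limma adjusted p = 0.0593) and on the second of its 3 probe sets (0.42, limma adjusted p = 0.064).

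Both the tissue-type plasminogen activator PLAT and the urokinase receptor PLAUR rose, while urokinase itself, PLAU, had changes near 0. PLAT had 12.28, 12.72, 12.61 and 12.27 with LH+BMP6, against 10.56, 10.89, 11.32 and 11.14 with LH. With BMP6 alone it had 12.24, 12.62, 12.42 and 12.47, against 10.27, 10.62, 11.32 and 11.32 in controls. The arrays with BMP6 were all above those without, and they spread less than the controls. Its changes were 1.49 ± 0.21 (limma adjusted p = 8.65e-05) and 1.55 ± 0.21 (limma adjusted p = 6.71e-05), or 2.81-fold and 2.93-fold.

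PLAUR, which holds urokinase at the cell surface, had 8.44, 9.04, 8.74 and 8.38 with LH+BMP6, against 7.52, 7.73, 7.69 and 7.61 with LH, and 8.28, 9.15, 8.51 and 8.58 with BMP6, against 7.28, 7.36, 7.88 and 7.81 in controls. These groups did not overlap, and replicate 2 was again the highest with BMP6. The changes were 1.01 ± 0.18 (limma adjusted p = 0.000648) and 1.05 ± 0.18 (limma adjusted p = 0.000565).

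PLAU had 7.0, 7.37, 7.22 and 7.13 with LH+BMP6, against 6.91, 7.51, 7.14 and 7.13 with LH, and 6.71, 7.27, 7.40 and 7.28 with BMP6, against 6.62, 7.16, 7.30 and 7.24 in controls. The groups lay on top of each other. Its changes were 0.01 ± 0.17 and 0.08 ± 0.17, and the 95% intervals of -0.35 to 0.36 and -0.27 to 0.44 do not reach the rises of PLAT and PLAUR.

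On the inhibitor side, the metalloproteinase inhibitors moved little by their brightest probe sets. TIMP3, the TIMP that binds to the matrix, was the one called: it had 6.66, 7.11, 6.88 and 6.79 with LH+BMP6, against 6.04, 6.32, 6.53 and 6.06 with LH, a change of 0.62 ± 0.14 (limma adjusted p = 0.00392). Without LH it had 6.46, 6.69, 6.95 and 6.80 with BMP6, against 6.53, 6.03, 6.39 and 6.38 in controls, a change of 0.39 ± 0.14 (limma adjusted p = 0.0587), which was called with the replicate block (limma adjusted p = 0.0432). The groups were apart with LH and overlapped without it, through BMP6 replicate 1 and control replicate 1. Leaving out BMP6 replicate 1 (0.48) or LH replicate 3 (0.39) also gave a call without LH.

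TIMP1, a broad inhibitor of soluble metalloproteinases, was among the brightest probe sets, with 8 to 107 brighter ones per array. It had 13.40, 13.75, 13.49 and 13.38 with LH+BMP6, against 13.21, 13.57, 13.18 and 13.15 with LH, and 13.24, 13.61, 13.35 and 13.21 with BMP6, against 12.90, 13.37, 13.38 and 13.12 in controls. The groups overlapped in both pairs. The changes of 0.22 ± 0.12 and 0.16 ± 0.12 were not called, and the first was called with the replicate block (limma adjusted p = 0.021).

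TIMP2, which takes part in the activation of pro-MMP2 by MMP14, gave a different answer on different probe sets. On its brightest one it had 13.68, 13.78, 13.70 and 13.68 with LH+BMP6, against 13.96, 13.86, 13.73 and 13.72 with LH, and 13.60, 13.74, 13.66 and 13.65 with BMP6, against 13.66, 13.58, 13.70 and 13.65 in controls. Changes there were -0.10 ± 0.06 and 0.01 ± 0.06, not called, and between 4 and 21 probe sets were brighter on any array, where the scale ends at 14.07 to 14.42. The probe set of second highest mean rose by 0.39 (limma adjusted p = 0.00254) and 0.50 (limma adjusted p = 0.000462), and the remaining one by 0.53 (limma adjusted p = 0.00596) and 0.59 (limma adjusted p = 0.00335). Both of these put every BMP6 array above the controls and every LH+BMP6 array above the LH arrays, as the plot of the 3 probe sets shows. The brightest probe set stands for the gene in the counts here, and whether it is saturated was not tested.

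**Figure D3:**
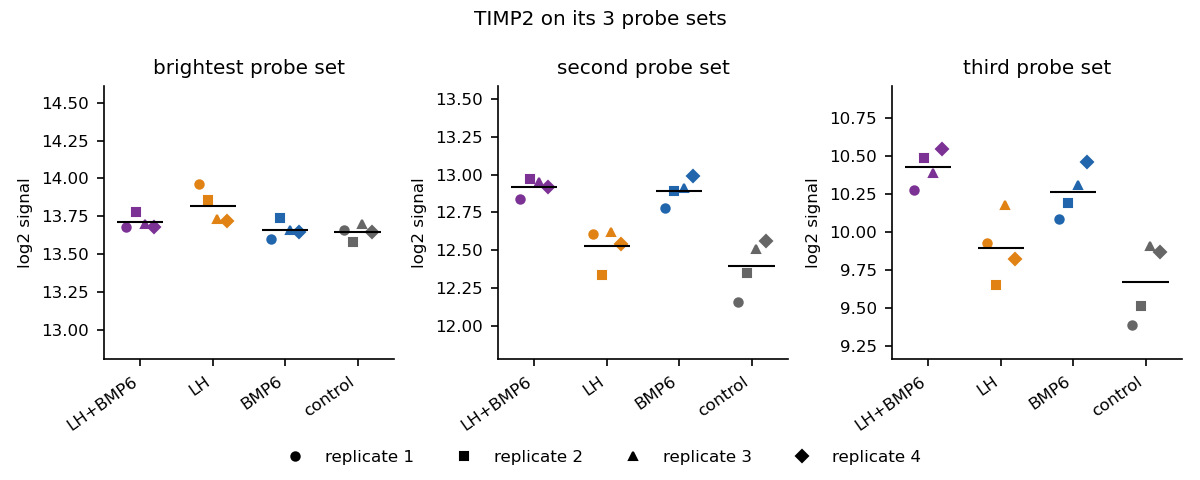
Log2 signal of TIMP2 (y axis, the same span in each panel) on its 3 probe sets, by group (x axis), with point shapes for the replicate number and lines for group means. The brightest probe set has no separation between groups with and without BMP6, whereas on the other probe sets the LH+BMP6 arrays sit above the LH arrays and the BMP6 arrays above the control arrays.

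Of the 20 serpins, 5 were called higher and 2 lower in LH+BMP6 against LH, and 4 higher and 1 lower in BMP6 against control. SERPINE2, protease nexin 1, inhibits thrombin and both plasminogen activators. It had 10.75, 11.09, 11.10 and 11.03 with LH+BMP6, against 9.97, 9.46, 9.98 and 9.82 with LH, and 10.66, 11.002, 11.12 and 10.86 with BMP6, against 10.13, 9.99, 10.07 and 9.77 in controls. All arrays with BMP6 lay above all without it. The changes were 1.18 ± 0.12 (limma adjusted p = 5.7e-06) and 0.92 ± 0.12 (limma adjusted p = 6.94e-05), so an inhibitor of PLAT rose in the same cultures as PLAT.

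SERPINF1, pigment epithelium-derived factor, is a secreted serpin that inhibits blood vessel growth and no protease. It had 6.71, 6.43, 6.67 and 6.89 with LH+BMP6, against 5.12, 4.88, 6.08 and 5.95 with LH, and 6.23, 6.08, 6.57 and 6.56 with BMP6, against 4.44, 4.83, 5.56 and 5.67 in controls. The groups were apart in both pairs, and replicates 3 and 4 were higher than replicates 1 and 2 on the arrays without BMP6. Its changes were 1.17 ± 0.27 (limma adjusted p = 0.00522) and 1.23 ± 0.27 (limma adjusted p = 0.00395).

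Among the intracellular clade B serpins, SERPINB9, the inhibitor of granzyme B, changed by 0.51 ± 0.12 with LH (limma adjusted p = 0.00542) and 0.56 ± 0.12 without it (limma adjusted p = 0.00322). SERPINB8, which can inhibit furin, changed by 0.40 ± 0.09 (limma adjusted p = 0.00409) and 0.27 ± 0.09 (limma adjusted p = 0.0487). The call without LH was lost in 19 alternative settings, 10 of which left out 1 array, and the change ran from 0.23 to 0.30 over all single arrays left out. SERPINB1, an inhibitor of neutrophil elastase, changed by 0.50 ± 0.13 (limma adjusted p = 0.00931) and 0.33 ± 0.13 (limma adjusted p = 0.0924), and became a call without LH when LH replicate 1 or LH replicate 2 was left out of the shared fit. SERPINB6 lies 1 gene away from SERPINB9 in the RefSeq annotation and changed by 0.15 ± 0.06 and -0.04 ± 0.06, not called.

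SERPINA3-7, of the bovine antichymotrypsin family, had the largest fall with LH. It had 8.50, 8.63, 8.21 and 8.36 with LH+BMP6, against 10.87, 10.26, 10.24 and 10.22 with LH, and 8.84, 8.73, 8.27 and 8.34 with BMP6, against 10.32, 10.14, 9.51 and 10.04 in controls. No array overlapped in either pair. The changes were -1.97 ± 0.18 (limma adjusted p = 1.48e-06) and -1.46 ± 0.18 (limma adjusted p = 3.15e-05). The family has several near-identical genes in cattle, so the signal cannot be assigned to one of them, and the second probe set under this symbol, with a mean of 3.61, changed by -0.04 and 0.05.

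SERPINA6, corticosteroid-binding globulin, was called lower with LH and not without it. It had 4.42, 4.54, 4.41 and 4.58 with LH+BMP6, against 4.82, 4.97, 4.73 and 4.76 with LH, a change of -0.33 ± 0.10 (limma adjusted p = 0.028), and -0.01 ± 0.10 without LH (limma adjusted p = 0.974). The groups did not overlap with LH, but the call was lost without LH+BMP6 replicate 1 or 3 or LH replicate 1 or 2, where the change was -0.28 to -0.33, and signals this low lie close to the lower quartile of the arrays. SERPINH1, the chaperone that folds collagen, was not called: it had 10.57, 10.69, 10.53 and 10.54 with LH+BMP6, against 10.89, 10.77, 11.03 and 10.76 with LH (-0.28 ± 0.11, limma adjusted p = 0.0852), and became a call (limma adjusted p = 0.0308) when control replicate 1 was left out of the shared fit. Without LH it had 10.50, 10.67, 10.47 and 10.47 with BMP6, against 10.21, 10.80, 10.80 and 10.44 in controls (-0.04 ± 0.11). Among the inhibitors of blood proteases, antithrombin (SERPINC1) changed by -0.32 ± 0.14 and -0.37 ± 0.14, and the C1 inhibitor SERPING1 by 0.03 ± 0.09 and -0.23 ± 0.09, none of them called.

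Cathepsins gave the largest share of calls of any family with more than 3 members. Of 12 genes, 6 were called higher in each BMP6 comparison, the same 6 in both, and 1 was called lower in BMP6 against control. CTSK, the cysteine protease that dissolves collagen, had 12.96, 12.98, 13.08 and 13.08 with LH+BMP6, against 11.77, 11.63, 12.29 and 12.12 with LH. With BMP6 alone it had 13.08, 12.65, 13.18 and 13.14, against 11.74, 12.05, 12.25 and 12.19 in controls. The arrays with BMP6 all lay above those without. Its changes were 1.07 ± 0.14 (limma adjusted p = 5.66e-05) and 0.95 ± 0.14 (limma adjusted p = 0.000185).

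CTSH, an aminopeptidase, had 12.26, 12.31, 12.24 and 12.08 with LH+BMP6, against 10.95, 11.57, 11.49 and 11.40 with LH, and 12.02, 12.25, 12.12 and 12.19 with BMP6, against 11.23, 11.37, 11.53 and 11.48 in controls. No array overlapped. The changes were 0.87 ± 0.11 (limma adjusted p = 3.29e-05) and 0.74 ± 0.11 (limma adjusted p = 0.000165).

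CTSL, a lysosomal endopeptidase that is also secreted, had 8.30, 8.09, 8.20 and 7.97 with LH+BMP6, against 6.60, 7.10, 7.49 and 7.47 with LH, and 8.0, 7.95, 7.95 and 7.82 with BMP6, against 6.62, 7.11, 7.56 and 7.42 in controls. The BMP6 arrays of both pairs lay close together and above a wide spread, in which replicate 1 was lowest. Its changes were 0.97 ± 0.19 (limma adjusted p = 0.00147) and 0.75 ± 0.19 (limma adjusted p = 0.0101). The second call ended with a term for the 3 arrays of dim hybridisation controls (0.54) and without all 4 arrays of replicate 2 (0.72).

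CTSB, a lysosomal endopeptidase and carboxypeptidase, had 12.11, 12.24, 12.05 and 12.13 with LH+BMP6, against 11.20, 11.44, 11.70 and 11.65 with LH, and 11.90, 11.98, 11.98 and 12.13 with BMP6, against 11.38, 11.50, 11.49 and 11.54 in controls. The groups were apart, with changes of 0.64 ± 0.09 (limma adjusted p = 9.4e-05) and 0.52 ± 0.09 (limma adjusted p = 0.000609). Of its 5 other probe sets, 4 were called higher with LH and 2 without it, and none was called lower.

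CTSS, a protease of antigen-presenting cells that stays active outside the lysosome, had 11.23, 11.16, 11.26 and 10.89 with LH+BMP6, against 10.24, 10.61, 10.68 and 10.66 with LH, and 11.19, 11.21, 11.19 and 11.21 with BMP6, against 10.83, 10.67, 10.68 and 10.88 in controls. The groups did not overlap. The changes were 0.59 ± 0.10 (limma adjusted p = 0.000375) and 0.44 ± 0.10 (limma adjusted p = 0.00395). The call without LH was lost with the replicate block joined to the term for the arrays of dim hybridisation controls (0.30). CTSZ, a carboxypeptidase, changed by 0.65 ± 0.10 (limma adjusted p = 0.000183) and 0.51 ± 0.10 (limma adjusted p = 0.0015).

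CTSC, the dipeptidyl peptidase that activates granule serine proteases, went the other way. It had 9.20, 9.54, 9.60 and 9.80 with LH+BMP6, against 10.12, 9.53, 10.25 and 10.30 with LH, and 9.03, 9.31, 9.88 and 9.49 with BMP6, against 10.69, 10.31, 10.42 and 10.51 in controls. Without LH the groups were apart, with a change of -1.06 ± 0.18 (limma adjusted p = 0.000539). With LH they overlapped, because LH replicate 2 was as low as the LH+BMP6 arrays, and the change was -0.51 ± 0.18 (limma adjusted p = 0.0531, or 0.0221 with the replicate block). That change was also called on leaving out LH replicate 2, LH+BMP6 replicate 4, BMP6 replicate 1 or BMP6 replicate 3, with values of -0.40 to -0.69 over all single arrays left out. The interaction of LH and BMP6 tests whether the pairs differ.

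The aspartic protease CTSD was not called: it had 8.35, 8.40, 8.66 and 8.81 with LH+BMP6, against 8.58, 7.95, 8.65 and 8.46 with LH (0.14 ± 0.16), and 8.42, 8.06, 8.70 and 8.62 with BMP6, against 8.44, 8.09, 8.33 and 8.43 in controls (0.13 ± 0.16). The serine carboxypeptidase CTSA changed by 0.14 ± 0.08 and 0.02 ± 0.08, with 95% intervals of -0.03 to 0.30 and -0.15 to 0.19. CTSS and CTSK lie 1 gene apart in the RefSeq annotation, and both rose.

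Several of these genes are also expressed by macrophages, other leukocytes and fibroblasts. Of 12 leukocyte and macrophage markers, 11 were measured. Their mean log2 signal was 6.33 to 6.57 with LH+BMP6, against 5.80 to 6.21 with LH, and 6.10 to 6.53 with BMP6, against 6.03 to 6.13 in controls. In LH+BMP6 against LH, 5 were called higher (CD14 1.04, PTPRC 0.95, CD3E 0.91, LAPTM5 0.78 and CD68 0.46), and in BMP6 against control 1 was (CD14 1.13). None was called lower, and ITGAM and MS4A1 lay below the lower quartile of every array. Among the markers not called in either comparison, CSF1R changed by -0.01 with LH and 0.03 without it. AIF1 changed by 0.13 and -0.07, and CD79A by -0.17 and -0.03. Of the 7 fibroblast markers 3 were called higher in each comparison, and their mean was 12.08 to 12.19 with LH+BMP6, against 11.67 to 12.04 with LH, and 11.99 to 12.22 with BMP6, against 11.66 to 12.03 in controls. Not all fibroblast markers followed: THY1 was lower, by -0.27 with LH and -0.34 without it, not called. COL1A1 changed by 0.35 and 0.01, not called. The called markers were higher in the comparisons in which MMP2 and 6 of the 12 cathepsins rose, and their part in those changes was not tested.

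**Figure D4:**
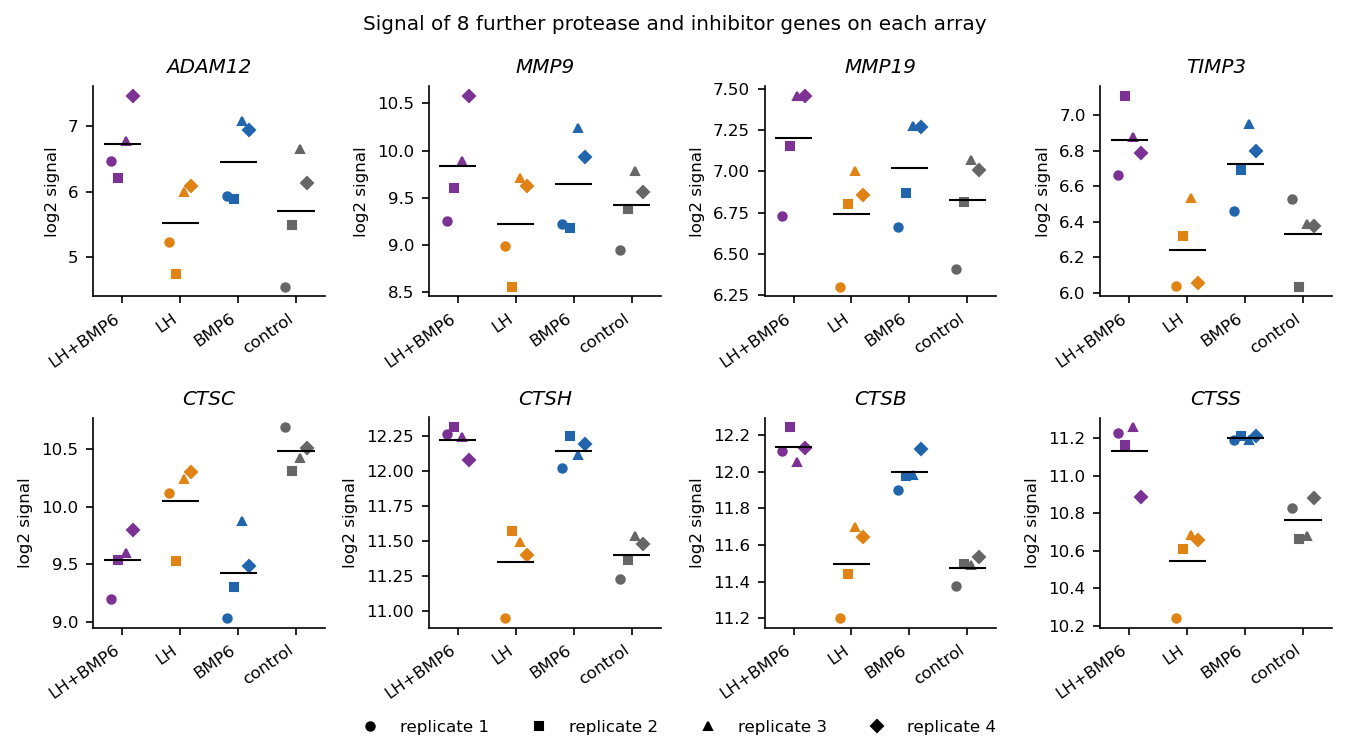
Log2 signal (y axis, a separate scale for each gene) of 8 further protease and inhibitor genes on the 16 arrays, by group (x axis), with point shapes for the replicate number and lines for group means. Replicates 3 and 4 of ADAM12, MMP9 and MMP19 stand above replicates 1 and 2 in every group, and the CTSC means are 9.54, 10.05, 9.42 and 10.48 from left to right.

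The changes with BMP6 in the presence and absence of LH come from separate arrays of the same culture experiments. Their p values come from the shared fit, which takes the spread from the arrays of all groups. The calls of these comparisons are therefore not independent of each other. In the comparisons with and without LH, 20 members were called in both, 17 higher and 3 lower, all in the same direction. These 20 are 80% of the 25 called with LH and 95.2% of the 21 called without it. The overlap over all named genes was not computed, so these shares are not shown to be particular to the members. Of the 20, 19 moved the same way in 4 of 4 replicate numbers of both comparisons, the exception being SERPINB9 in replicate 4 with LH (-0.01). The 20 were picked as called on these same arrays, so that count is no separate support for the calls. CTSC was the 1 member called without LH alone, and TIMP3, SERPINB1, SERPINA6, ADAM12 and ADAM10 were the 5 called with LH alone, but a call in one comparison and not in the other does not show a difference between them.

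**Figure D5:**
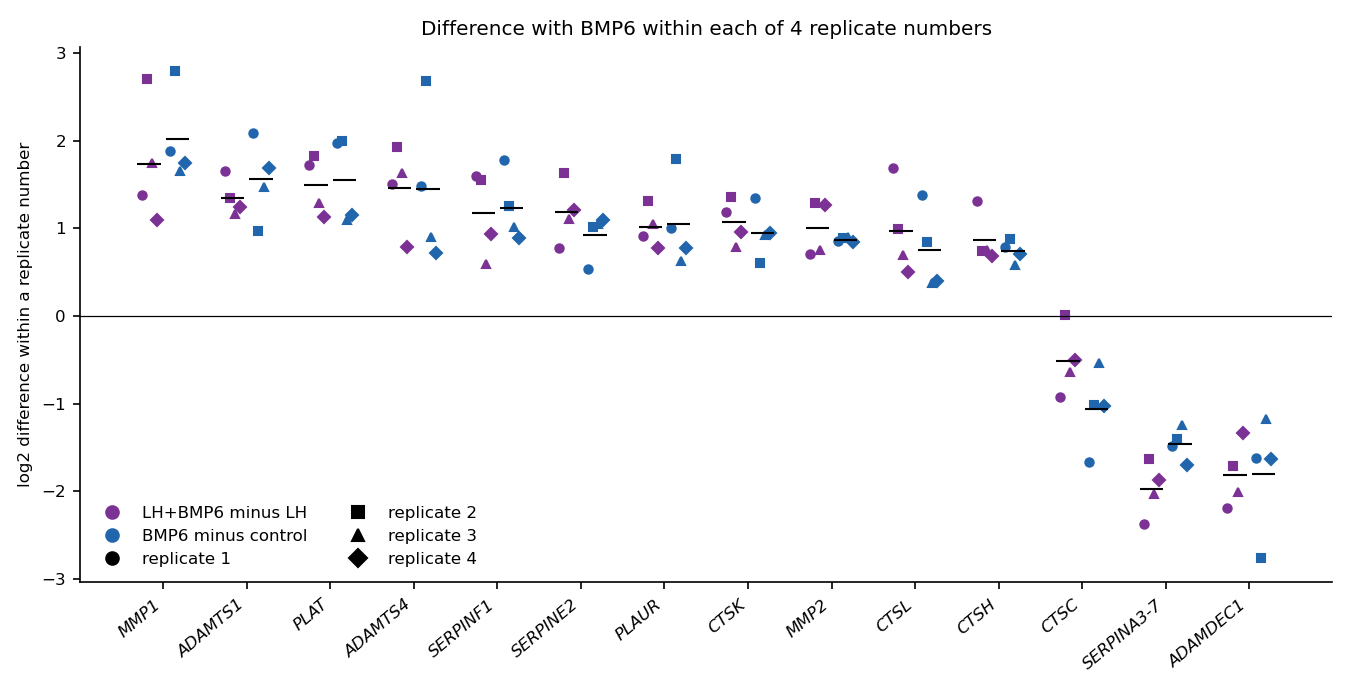
Difference in log2 signal (y axis) between LH+BMP6 and LH (purple) and between BMP6 and control (blue) within each replicate number for 14 called genes (x axis); shapes mark the replicate number and lines the means. All points of the rising genes lie above 0, and the points of CTSC, SERPINA3-7 and ADAMDEC1 lie below 0, except CTSC in replicate 2 with LH at 0.01.

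The interaction was taken as the change in LH+BMP6 against LH minus the change in BMP6 against control. No member was called by limma, nor was any of the 9155 genes in either direction (0%), of which 264 had an unadjusted p under 0.05. Among members, 3 had an unadjusted p under 0.05. They were SERPINA1, alpha-1 antitrypsin (-0.34 ± 0.12, 95% interval -0.59 to -0.08), SERPINA6 (-0.32 ± 0.14, -0.63 to -0.02) and CTSC (0.55 ± 0.25, 0.01 to 1.08), all with a limma adjusted p of 1. For the genes with the largest rises the interaction was -0.29 ± 0.32 for MMP1 (95% interval -0.97 to 0.40), -0.20 ± 0.26 for ADAMTS1 (-0.75 to 0.34), -0.06 ± 0.29 for PLAT (-0.68 to 0.56) and 0.02 ± 0.37 for ADAMTS4 (-0.77 to 0.80). These intervals are wide next to the changes themselves, so equal changes with and without LH are not shown.

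LH had little measurable effect on these genes. In LH against control 0 members were called higher, against 0.0218% of all named genes, and 0 lower, against 0%. An unadjusted p under 0.05 was found for 8 of the 66 members and for 496 of the 9155 named genes. The median change was 0.05. SERPINA1, the main inhibitor of elastase in blood, had the smallest p: its signals were 5.80, 5.83, 5.73 and 5.67 with LH, against 5.36, 5.54, 5.32 and 5.40 in controls. The groups were apart, and the change was 0.35 ± 0.09 (limma adjusted p = 0.533). With BMP6 present SERPINA1 had 5.37, 5.51, 5.64 and 5.71 with LH+BMP6, against 5.48, 5.57, 5.58 and 5.52 with BMP6, and those groups overlapped. The cysteine protease CTSF had 8.75, 8.16, 8.39 and 8.47 with LH, against 7.89, 8.07, 7.91 and 7.98 in controls (0.48 ± 0.15, limma adjusted p = 0.689), and TIMP2 changed by 0.17 ± 0.06 on its brightest probe set (limma adjusted p = 0.748). All 3 were higher with LH in 4 of 4 replicate numbers.

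Among the genes that moved with BMP6, LH against control gave 0.22 ± 0.23 for MMP1 (95% interval -0.27 to 0.70), 0.31 ± 0.18 for ADAMTS1 (-0.08 to 0.70), 0.10 ± 0.21 for PLAT (-0.34 to 0.53) and 0.09 ± 0.12 for MMP2 (-0.16 to 0.34). SERPINA3-7 and CTSC stood out by size, with 0.40 ± 0.18 (limma adjusted p = 0.912) and -0.44 ± 0.18 (limma adjusted p = 0.907), not called.

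In LH+BMP6 against BMP6, 0 members were called in either direction (0% of all named genes in each). An unadjusted p under 0.05 was found for 0 members and for 128 of the 9155 named genes. The smallest p values belonged to SERPINA14, the uterine serpin of ruminants, MMP2 and the plasmin inhibitor SERPINF2. SERPINA14 had 4.67, 5.12, 4.18 and 4.34 with LH+BMP6, against 4.13, 4.64, 4.03 and 4.16 with BMP6, a change of 0.34 ± 0.17 between overlapping groups. SERPINF2 had 7.25, 7.25, 7.197 and 7.37 with LH+BMP6, against 7.01, 7.30, 7.15 and 6.98 with BMP6 (0.16 ± 0.09), and MMP2 changed by 0.22 ± 0.12. Both overlapped. All 3 had a limma adjusted p of 1.

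The level of some members differed by replicate number. These numbers were taken as the culture experiments, which the labels do not state for each array. In ADAM12, MMP9, MMP19 and CTSK, both replicate 3 and replicate 4 lay above both replicate 1 and replicate 2 in each of the 4 groups. The mean log2 signal of replicates 3 and 4, against that of replicates 1 and 2, was 6.64 against 5.57 for ADAM12, 9.91 against 9.14 for MMP9, 7.17 against 6.72 for MMP19 and 12.67 against 12.36 for CTSK. ADAMDEC1 had the widest range between replicate numbers, 1.20, and that of MMP1 was 0.22.

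Of the 66 members, 50 lay above the lower quartile on all 16 arrays, and 25 of these were called in at least 1 of the BMP6 comparisons. The same share over all named genes above the lower quartile was not computed, so it is not shown to be particular to the members. The remaining 16 were below it on at least 1 array, and 9 on all of them: ADAM1B, ADAM2, ADAM23, ADAMTS6, MMP3, MMP20, SERPINA7, SERPINA10 and SERPINI2. None of these 9 was called, but ADAMTS6 in LH+BMP6 against LH (0.30, groups apart) was called in 3 alternative settings and MMP20 in BMP6 against control (0.24) in 2, namely without BMP6 replicate 1 and without all arrays of replicate 1.

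Other parts of the protease system were read from a list of 79 genes, of which 57 were measured. In LH+BMP6 against LH 14 were called higher and 4 lower, with a median change of 0.09, where 11.7% of all named genes were called higher and 15.5% lower. In BMP6 against control 11 were called higher and 4 lower, with a median of 0.11, where 9.31% of all named genes were called higher and 15.5% lower. The initiator of coagulation, tissue factor (F3), rose by 1.20 ± 0.18 with LH and 1.01 ± 0.18 without it, and TFPI2, a matrix-bound inhibitor of plasmin and factor VIIa, by 1.14 ± 0.16 and 0.98 ± 0.16. The thrombin receptor F2R rose by 0.72 ± 0.13 and 0.63 ± 0.13, and the lysosomal cysteine protease legumain (LGMN), which processes cathepsins, by 0.73 ± 0.15 and 0.62 ± 0.15. Calpastatin (CAST), which inhibits the calpains inside the cell, rose by 0.68 ± 0.15 and 0.64 ± 0.15.

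Among the genes called with LH and not without it were LOXL1, which crosslinks elastin (1.26 ± 0.27), the lipoprotein receptor VLDLR, which also clears complexes of proteases with serpins (1.19 ± 0.32), and the cell-surface peptidase DPP4 (0.93 ± 0.27), and whether these differ between the comparisons was not shown. All 4 genes that fell did so in both. They were the crosslinking enzyme TGM2 (-1.27 ± 0.10 with LH and -1.61 ± 0.10 without it), the endothelin-converting enzyme ECE1 (-1.10 ± 0.18 and -1.26 ± 0.18), thrombomodulin THBD (-0.74 ± 0.23 and -0.72 ± 0.23) and the peptidase NRDC (-0.26 ± 0.09 and -0.27 ± 0.09). Leaving out 1 array ended the THBD calls in 5 of 16 cases in each comparison, with changes of -0.95 to -0.51 and -0.82 to -0.59, and those of NRDC in 8 and 7 cases. The DPP4 call ended in 4 of 16 cases, with changes of 0.78 to 1.19 over all of them. The VLDLR call ended in 0 of 16 cases. It was lost without all arrays of replicate 3 or of replicate 4, and on the mean of its probe sets. No gene of the list was called in LH against control or in LH+BMP6 against BMP6.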

How the data were processed

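RNA from 16 theca cell cultures was measured on Affymetrix bovine arrays, 4 in each of 4 groups. The deposited values are log2 signals that the authors obtained with RMA and Affymetrix Expression Console, per the submitters' processing notes. Software versions were not given in the sources used here. RMA corrects background, quantile-normalizes and summarises each probe set, which gives all arrays nearly the same signal distribution. Values were used as deposited, and the table held 0 columns without a sample.

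The 112 Affymetrix control probe sets among 24128 were excluded, and 24016 were tested. The platform annotation gave 1 symbol to 13292, several to 86 and none to 10638. Entrez identifiers matched the RefSeq gene table for 13263 and changed 0 symbols, and the table served only for names and gene order. Without detection calls, the lower quartile of each array (4.31 to 4.43) describes dim signals.

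Tests used limma 3.58.1 in R 4.3.3, fitting a mean for each group to the 16 arrays together, with trended eBayes, two-sided p values and Benjamini-Hochberg adjustment over the 24016 probe sets. The fit was tested on simulated data. Python 3.11.15 drew the figures with matplotlib 3.10.9 and wrote the tables with numpy 2.4.6 and pandas 2.3.3.

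Replicate numbers were taken as the 4 culture experiments on different ovary batches, which the series describes without assigning arrays. As a check of this pairing, array deviations from the group mean had an average correlation between equal numbers of 0.20 for LH+BMP6 with LH, 0.04 for BMP6 with control, 0.16 for LH with control and 0.38 for LH+BMP6 with BMP6. Between unequal numbers it was -0.07, -0.01, -0.05 and -0.12. The replicate block is an alternative, given where it changes a call. Other alternatives were a random block (statmod 1.5.0), other eBayes settings, exclusion of dim probe sets (below the 40th percentile), renormalization, only the arrays compared, the dim hybridisation controls as a term or those arrays left out, other probe sets of a gene, and each array or replicate left out. Joining the block with the hybridisation-control settings was chosen after seeing the data.

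The members and gene lists were chosen with earlier results of these data known. Values on single arrays are given for CTSH and for members picked as follows. Up to 10 called members with the largest change were taken in each direction of the BMP6 comparisons. Added to these were the 3 members of smallest p elsewhere, and defining members, 18 of 20 of which were measured. Of the other protease-system genes, up to 5 called in each direction were picked in each BMP6 comparison. For some of them the values of both comparisons are given. No promoter or protein sequence was used here.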

Additional observations from a re-analysis of the deposited data

Results flagged for a closer look

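The search took the 30 members picked by change, p value or as defining members, which do not include CTSH. Each group of 4 arrays was searched for a single array far from the other 3 by Dixon's test at its 95% critical value. Of 120 groups, 6 were marked, and chance marks about 1 in 20. LH replicate 1, one of the 3 arrays with dim hybridisation controls, was the odd array in 3 of them. It was the highest of the LH arrays for SERPINA3-7, at 10.87 with the next at 10.26. It was the lowest for CTSS, at 10.24 with the next at 10.61, and for ADAMTS4, at 9.16 with the next at 9.27. Without that array the changes of these 3 genes in LH+BMP6 against LH were still called.

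Replicate 2 gave the other 3. TIMP1 was highest in LH replicate 2 at 13.57, with the next LH array at 13.21. TIMP2, on its brightest probe set, was highest in LH+BMP6 replicate 2 at 13.78, with the next at 13.70, and SERPINH1 in BMP6 replicate 2 at 10.67, with the next at 10.50. None of these 3 genes was called on its brightest probe set in the comparisons with BMP6 in the fit without a block. With LH, TIMP1 and SERPINH1 each gained a call in 3 alternative settings. The other probe sets of TIMP2 were called higher in both comparisons.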

How the results depend on the processing

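Up to 34 alternative settings were run for each result. The counts of called members stayed within 1.5 times the values above in all of them: 14 to 20 higher and 3 to 5 lower in BMP6 against control, 17 to 26 higher and 3 to 6 lower in LH+BMP6 against LH, and 0 in the other comparisons. With the replicate block 20 members were called higher and 4 lower in BMP6 against control, and 25 higher and 6 lower in LH+BMP6 against LH. Of all 24016 probe sets, the block gave 2419 higher and 2783 lower in BMP6 against control, and 2834 and 2872 in LH+BMP6 against LH. Of the members called in both BMP6 comparisons, 14 were called in every alternative of both. Over the 58 results of single named members, 1889 values kept direction and side of the threshold, 32 lost the call, 19 gained it and 24 turned sign. The sign turned for SERPINA3-7 in BMP6 against control on its second probe set (0.05), and for TIMP2 in LH+BMP6 against LH on its second probe set (0.39) and the mean of its probe sets (0.27). PLAU turned in BMP6 against control with the low hybridisation-control term (-0.06) or without those arrays (-0.04), and in LH+BMP6 against LH with these settings (-0.07 and -0.08), quantile normalization (-0.02) and median centring (-0.01). On leaving out single arrays or replicates the changes ran from -0.07 to 0.24 and from -0.08 to 0.12 for PLAU without and with LH, from -0.15 to 0.06 for SERPINH1 and from -0.03 to 0.04 for TIMP2 in BMP6 against control, and from -0.01 to 0.27 for CTSD in LH+BMP6 against LH; all of these lie near 0 and were not called. Apart from the probe sets, the cause of these turns was not tested. Calls at an adjusted p just under 0.05 (ADAM12, ADAM19 and SERPINB8) moved with many settings. Dim signals limit what could be seen: 25 members lay under the 40th percentile of mean signal, and the brightest ones, such as TIMP2, lie near the top of the scale.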
